A study of Mus musculus with 6 samples.

Results

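The Rab small GTPases, a family of small GTP-binding proteins, were examined in testis of Tmc7 knockout and heterozygous control mice. A gene was counted as a member if it was protein-coding and its symbol was Rab, a number and at most 1 letter from a to d. This gave 59 of the 55711 entries of the deposited table, which lists 22046 protein-coding genes. This rule used symbol and gene type and no measured value, though it was set with earlier results of these data known. RNA was sequenced from 6 testis libraries on the C57BL6 background. The 3 control libraries are labelled heterozygote, so the controls too carry a disrupted Tmc7 allele and no wild-type testis was compared. The other 3 are labelled knockout. No age, treatment or further allele is given for either group, and how Tmc7 was disrupted is not stated. Whether each library stands for its own animal is not stated. The p-values therefore reflect only how far these samples vary, which may be technical.

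Rab proteins switch between a GDP-bound and a GTP-bound state, and in the GTP-bound state each recruits effectors to its own membrane. Guanine nucleotide exchange factors (GEFs) switch a Rab on and GTPase-activating proteins (GAPs) switch it off. A prenyl anchor, added by Rab geranylgeranyl transferase, holds the protein on the membrane, and GDP dissociation inhibitors take the inactive form back to the cytosol. In testis these proteins are studied for the growth of the acrosome, a Golgi-derived vesicle over the sperm nucleus, and for traffic in Sertoli cells. The series title ties TMC7 to vesicles that leave the trans-Golgi network, a route that several Rab proteins serve, so the comparison asks whether transcripts of this traffic machinery differ between the groups.

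The members share the P-loop, which holds the phosphates of the bound nucleotide. Its codons were searched in the coding sequence of GENCODE M21 as glycine (GGN), any 4 codons, glycine (GGN), lysine (AAA or AAG), and serine or threonine. The codons were found in 55 of the 57 members searched, and these letters were not found in Rab40b and Rab40c. The P-loop codons of the most abundant close paralogues are shown because they illustrate how far related members differ in nucleotides. Capitals mark the codons of the 2 glycines and the lysine.
Rab1a: GGCgattctggggttGGAAAGtcc
Rab1b: GGTgactccggcgtgGGCAAGtcg
Rab2a: GGCgacacaggtgttGGTAAAtcg
Rab2b: GGAgacacaggtgtgGGGAAGtca
Rab5a: GGAgagtctgctgttGGCAAAtca
Rab5b: GGAgagtctgcagtgGGGAAGtct
Rab5c: GGCgagtctgccgtgGGCAAGtcc
Rab6a: GGAgagcagagcgttGGAAAGacg
Rab6b: GGGgagcagagcgtcGGGAAGacg
Rab11a: GGAgattctggtgttGGAAAGagt
Rab11b: GGGgactcaggtgtaGGTAAGagc

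In GRCm38 the Rab1b P-loop codons lie at chr19:5105199-5105222 on the minus strand, in exon 2 of 6, and those of Rab1a at chr11:20215658-20215681 on the plus strand, also in exon 2 of 6. Those of Rab5c lie at chr11:100719976-100719999 on the minus strand, in exon 2 of 6, and those of Rab11a at chr9:64728395-64728418 on the minus strand, in exon 2 of 5. The P-loop codons of Rab2a are split between exons 1 and 2 and span chr4:8535899-8561165 on the plus strand.

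Sequence differences between members matter for the values, since reads of near-identical copies can be assigned to the wrong gene. Over 22 pairs of close paralogues, the coding sequences were between 63.3% (Rab7 with Rab7b) and 79.3% (Rab8a with Rab8b) identical. Only 3 of these pairs shared a run of at least 31 identical coding bases. These runs are shown because a read of that length within them could not tell the 2 genes of a pair apart.
Rab1a and Rab1b: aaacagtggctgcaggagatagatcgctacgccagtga
Rab5a and Rab5b: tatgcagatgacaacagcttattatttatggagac
Rab3b and Rab3d: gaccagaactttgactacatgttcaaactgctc

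These runs are 38, 35 and 33 bases long. Over whole transcripts, no member shared more than 1.99% of its 31-base words with another member. Sharing with genes outside the family was larger. In 7 members over 20% of the words occurred in transcripts of another gene, while 46 of the 59 members shared under 10%. Rab43 shared 74.8% of its words with the overlapping gene model Gm45140. Rab2b shared 59.6% and Rab4b 62.7% with any other gene, mostly with Gm43766 (56.4%) and Gm21983 (59.2%). Rab24, which has been linked to autophagy, shared 54.4% with Prelid1, whose mean was 9.88 FPKM. Strand handling is not stated, so values of these 4 members, and of Rab20, Rab33b and Rab6a with shares of 21.3% to 24.01%, are uncertain.

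Values are FPKM, sequenced fragments relative to gene length and a library size, and can therefore be set side by side between genes. That size was not the plain sum of reads, with 1.645e+07 against 17059486 reads in control library 1. The median ratio to each gene's geometric mean was 1.00677 in every library, so the values were already on a common scale. They imply 17059486 to 19343479 reads in a library. Rab genes held between 0.14% and 0.162% of these reads. Tmc7 itself measured 39.1, 37.7 and 37.2 FPKM in controls, against 43.8, 41.9 and 35.1 FPKM in the knockout-labelled libraries. The groups overlap, so the Tmc7 level does not check the labels. Knockout-labelled libraries 2 and 3 stood apart: small and structural RNA genes held 0.335% and 0.281% of their reads, against 0.0949% to 0.105% in the other 4. Markers of all 9 testis cell types examined were detected.

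Testis held transcripts of most of the family, led by 2 genes of the early secretory route. Of the 59 members, 53 were above 0 in all 6 libraries, 41 had a mean of at least 0.5 FPKM, and 14 a mean of at least 10 FPKM. Rab1b, which acts between the endoplasmic reticulum and the Golgi, was the most abundant. This gene (ENSMUSG00000024870, chr19:5099207-5106996, minus strand) had 66.1 ± 3.35 FPKM in controls (SD, n = 3). By its mean over all 6 libraries it had rank 787 among protein-coding genes. Rab2a, which acts at the Golgi and has been found on the acrosome, followed with 57.0 ± 1.33 FPKM in controls (SD, n = 3). Its rank by the mean over 6 libraries was 1060. Both together made up at most 29.6% of the summed Rab FPKM of a library, and the 14 most abundant members made up between 73.1% and 75.9%. The summed Rab FPKM was 441, 444 and 447 in controls, against 448, 454 and 461 in the knockout-labelled libraries.

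**Figure D1:**
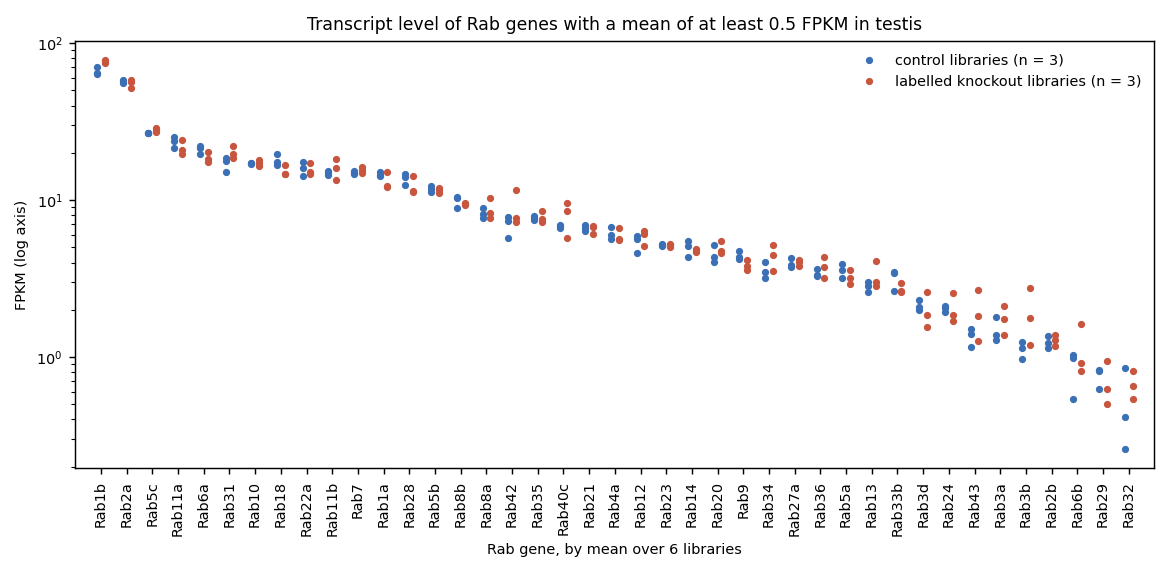
Each point is the FPKM of 1 library (log axis) for the 41 Rab genes that averaged 0.5 FPKM or more, in order of their mean over 6 libraries, with 3 control and 3 labelled knockout libraries. Rab1b and Rab2a stand above all other members, and the 2 groups lie over each other for most genes.

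In the order of levels most neighbours could not be separated. Of the 40 neighbouring pairs among the 41 members, 5 had ranges over the 6 libraries that did not overlap. Of these steps 3 are at the top, from Rab1b to Rab2a, to Rab5c and to Rab11a. The remaining 2 lie between Rab5b and Rab8b and between Rab33b and Rab3d. From Rab11a down to Rab5b, a stretch of 11 genes, each gene overlapped the next. The level order of these genes is therefore not resolved by these libraries.

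No Rab gene passed the test between the groups. With limma on log2(FPKM + 1) and Benjamini-Hochberg adjustment over the 19168 genes tested, 0 of the 41 tested members had an adjusted p under 0.05, and percent called over all genes was 0%. The smallest adjusted p was 0.868 among the members and 0.328 over all genes. At an unadjusted p under 0.05 there was 1 member, Rab1b with the higher mean in the knockout-labelled libraries, where 1.48% of all genes were higher, 2.38% lower and 3.87% either. Of the members, 22 had a difference above 0 and 19 below, where 48.6% of all genes were above 0. The median difference on the log2(FPKM + 1) scale was 0.01 over the members and -0.01 over all genes. Such differences understate the change of genes with low values. In whole testis, fewer cells of a type and less RNA per cell cannot be told apart.

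The size of difference these libraries leave room for depends on the level, since log2(FPKM + 1) understates changes of low values. The 95% interval of the difference included 0 in 40 of the 41 members, and in 34 it lay within 0.5 of 0 on the log2(FPKM + 1) scale. In 7 members it reached further, and the half-widths ran from 0.18 to 0.48. A difference over 0.2 in size was seen in 7 members, where 25.9% of all genes had one. The groups did not overlap in 3 members, Rab1b and Rab5c on the higher side and Rab9 on the lower side. This is 7.32% of the members, where the share over all genes was 8.56%, with 4.15% higher and 4.41% lower.

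**Figure D2:**
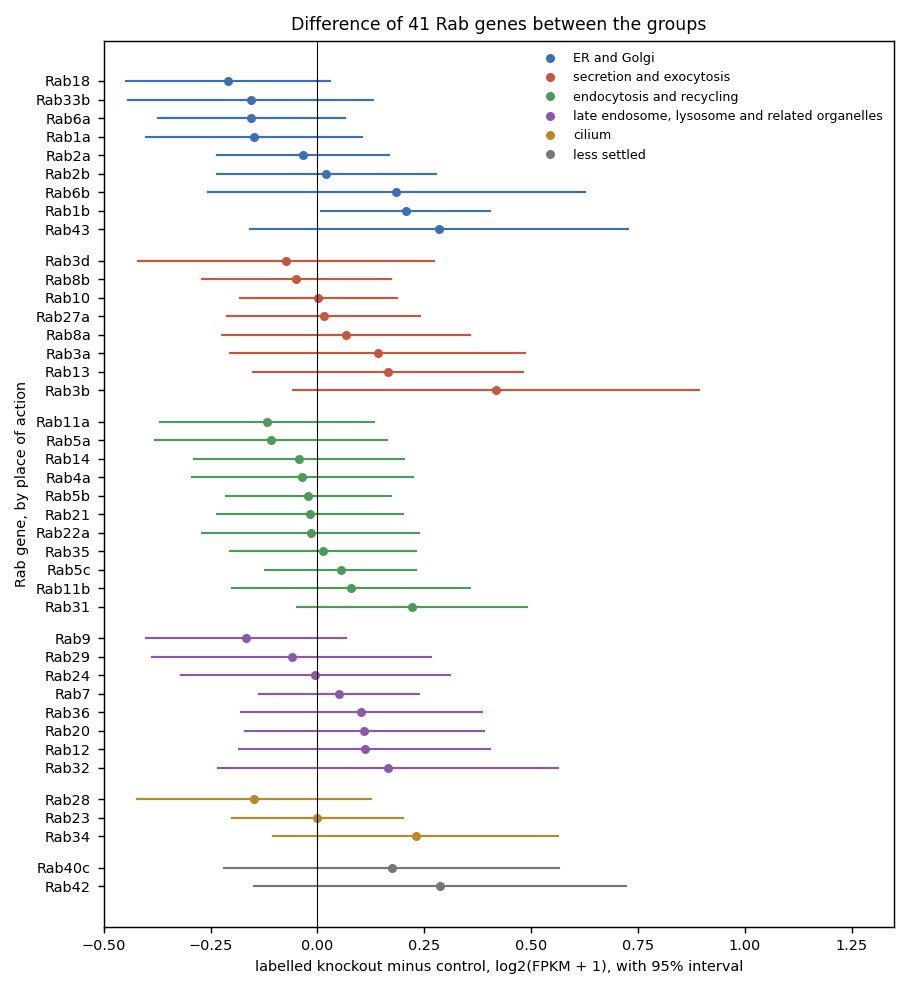
Points are the differences of the labelled knockout mean from the control mean on the log2(FPKM + 1) scale, with 95% intervals from limma, for 41 Rab genes coloured and sorted by place of action. Only the interval of Rab1b lies to one side of 0, and Rab3b has the highest difference with 0.42.

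Members of the endoplasmic reticulum and Golgi came in both directions. Of 11 such genes 9 were tested, 4 with a difference above 0 and 5 below, with a median of -0.03. Rab1b measured 70.0, 63.9 and 64.5 FPKM in controls, against 74.3, 77.2 and 77.8 FPKM in the knockout-labelled libraries. Every labelled knockout library was above every control. The difference was 0.21 with an SE of 0.08 and a 95% interval from 0.01 to 0.40 (limma, unadjusted p = 0.0426, adjusted p = 0.868).

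Rab1a, which serves the same route as Rab1b, measured 14.3, 15.1 and 14.5 FPKM in controls, against 15.2, 12.2 and 12.1 FPKM in the knockout-labelled libraries. Knockout-labelled library 1 had the highest value of all 6 and the other two the lowest. The difference was -0.15 with an SE of 0.11, and it was 0.05 without knockout-labelled libraries 2 and 3. Rab18, known from the endoplasmic reticulum and lipid droplets, measured 17.4, 16.7 and 19.6 FPKM in controls, against 16.8, 14.6 and 14.6 FPKM in the knockout-labelled libraries. Again knockout-labelled libraries 2 and 3 were lowest, and the groups overlap. Its difference was -0.21 with an SE of 0.10, the lowest of the members.

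Rab6a, which acts in retrograde traffic through the Golgi and in exit from the trans-Golgi network, measured 19.6, 21.3 and 21.96 FPKM in controls, against 20.3, 17.6 and 18.3 FPKM in the knockout-labelled libraries. The groups overlap through library 1 of each. The difference was -0.16 with an SE of 0.09, and 21.3% of the words of Rab6a occur in other genes, mostly in Mrpl48 with 3.12 FPKM. Rab33b, which acts at the Golgi and in autophagy, measured 2.63, 3.43 and 3.46 FPKM in controls, against 2.60, 2.62 and 2.97 FPKM in the knockout-labelled libraries. Control library 1 lay within the labelled knockout range, and the difference was -0.16 with an SE of 0.12. Rab2a measured 56.5, 56.0 and 58.6 FPKM in controls, against 56.8, 52.0 and 58.6 FPKM in the knockout-labelled libraries. Its difference was -0.03 with a 95% interval from -0.24 to 0.17. Rab6b, the relative of Rab6a best known from brain, measured 0.544, 0.987 and 1.02 FPKM in controls, against 0.809, 1.63 and 0.918 FPKM in the knockout-labelled libraries. Rab43, largely covered by an overlapping gene model, measured 1.40, 1.51 and 1.16 FPKM in controls, against 1.26, 2.68 and 1.82 FPKM in the knockout-labelled libraries, with a difference of 0.28 and an SE of 0.19.

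Rab10 had the highest level among the Rab genes of secretion. Of 12 such genes 8 were tested, 6 with a difference above 0 and 2 below, with a median of 0.04. Rab10, which carries vesicles from the trans-Golgi network to the plasma membrane, measured 17.3, 17.3 and 17.0 FPKM in controls, against 16.5, 17.96 and 17.2 FPKM in the knockout-labelled libraries. The groups lay over each other, and the 95% interval of the difference ran from -0.18 to 0.19. Rab8b and Rab8a, which act on the same route, had control means of 9.87 ± 0.90 and 8.26 ± 0.65 FPKM (SD, n = 3).

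Rab3b, a member of the Rab3 group of regulated exocytosis, measured 0.966, 1.15 and 1.26 FPKM in controls, against 1.19, 2.77 and 1.76 FPKM in the knockout-labelled libraries. The highest value was in knockout-labelled library 2, and library 1 lay within the control range. Its difference of 0.42 with an SE of 0.20 was the highest of the members (limma, unadjusted p = 0.0764, adjusted p = 0.868). It was 0.21 without knockout-labelled library 2, 0.60 without library 1 and 0.04 without libraries 2 and 3, so single libraries set this value. Rab3a and Rab27a, both studied in the exocytosis of the acrosome, were also read. Rab3a measured 1.80, 1.29 and 1.38 FPKM in controls, against 1.38, 2.12 and 1.75 FPKM in the knockout-labelled libraries. Rab27a measured 3.73, 3.87 and 4.27 FPKM in controls, against 3.82, 4.13 and 4.06 FPKM in the knockout-labelled libraries, with overlapping groups in both genes.

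Endosomal Rab genes included the third most abundant member, Rab5c. Of 15 genes of endocytosis and recycling 11 were tested, 4 with a difference above 0 and 7 below, with a median of -0.02. Rab5c, a Rab of early endosomes, measured 26.9, 26.9 and 26.7 FPKM in controls, against 27.04, 28.0 and 28.6 FPKM in the knockout-labelled libraries. All 3 labelled knockout libraries lay above the controls, yet the difference was 0.05 with an SE of 0.08. Rab31, which acts between the trans-Golgi network and endosomes, measured 15.02, 17.8 and 18.7 FPKM in controls, against 18.5, 22.2 and 19.8 FPKM in the knockout-labelled libraries. Its groups overlap by control library 3 and knockout-labelled library 1, and the difference was 0.22 with an SE of 0.11. Without knockout-labelled libraries 2 and 3 it was 0.10.

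Rab11a, the Rab of recycling endosomes, measured 23.7, 21.6 and 25.1 FPKM in controls, against 24.1, 19.7 and 20.9 FPKM in the knockout-labelled libraries. Its relative Rab11b measured 14.3, 14.9 and 15.3 FPKM in controls, against 13.4, 16.0 and 18.2 FPKM in the knockout-labelled libraries. Knockout-labelled libraries 2 and 3 were thus the lowest 2 for Rab11a and the highest 2 for Rab11b. Of the words of Rab11b, 15.4% occur elsewhere, mostly in the copy Rab11b-ps2, which measured 12.1 FPKM. Rab22a, a relative of Rab31, measured 17.5, 15.9 and 14.2 FPKM in controls, against 17.1, 15.2 and 14.7 FPKM in the knockout-labelled libraries.

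Among the Rab genes of late endosomes, lysosomes and related organelles 8 of 11 were tested, 5 with a difference above 0 and 3 below, with a median of 0.08. Rab7, the main Rab of late endosomes, measured 15.2, 14.98 and 14.7 FPKM in controls, against 14.8, 16.2 and 15.6 FPKM in the knockout-labelled libraries. Its groups overlap, and 18.4% of its words occur elsewhere, mostly in Rab7-ps1. Rab9, which returns receptors from late endosomes to the trans-Golgi network, measured 4.21, 4.32 and 4.76 FPKM in controls, against 4.14, 3.79 and 3.58 FPKM in the knockout-labelled libraries. Its groups did not overlap, with the closest values 4.21 and 4.14 FPKM, and the difference was -0.17 with an SE of 0.10. Without knockout-labelled libraries 2 and 3 it was -0.08.

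All 3 Rab genes of the cilium were tested, 1 with a difference above 0 and 2 below. Rab23, a regulator of Hedgehog signalling, measured 5.22, 5.10 and 5.14 FPKM in controls, against 5.18, 5.24 and 5.03 FPKM in the knockout-labelled libraries, and the 95% interval of its difference ran from -0.20 to 0.20. Rab28, known from photoreceptor cilia, measured 14.6, 14.0 and 12.5 FPKM in controls, against 14.2, 11.2 and 11.5 FPKM in the knockout-labelled libraries, so knockout-labelled libraries 2 and 3 were its lowest. Rab34, which acts in the formation of cilia, measured 3.49, 4.05 and 3.21 FPKM in controls, against 3.55, 4.50 and 5.16 FPKM in the knockout-labelled libraries. Its highest values were in knockout-labelled libraries 2 and 3. The difference was 0.23 with an SE of 0.14, and it was -0.01 without these 2 libraries.

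Of the 7 members with a less settled place of action 2 were tested. Rab42 measured 7.35, 7.81 and 5.74 FPKM in controls, against 7.23, 7.73 and 11.5 FPKM in the knockout-labelled libraries. Only knockout-labelled library 3 lay above the controls, and the difference of 0.29 with an SE of 0.18 was 0.10 without it. Rab40c, whose protein also carries a SOCS box, measured 6.82, 6.89 and 6.68 FPKM in controls, against 5.76, 9.52 and 8.55 FPKM in the knockout-labelled libraries.

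The tested members not yet given by library were Rab2b, Rab3d, Rab4a, Rab5a, Rab5b, Rab8a, Rab8b, Rab12, Rab13, Rab14, Rab20, Rab21, Rab24, Rab29, Rab32, Rab35 and Rab36. Their differences lay between -0.11 for Rab5a and 0.16 for Rab13 and Rab32, and their groups overlap.

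**Figure D3:**
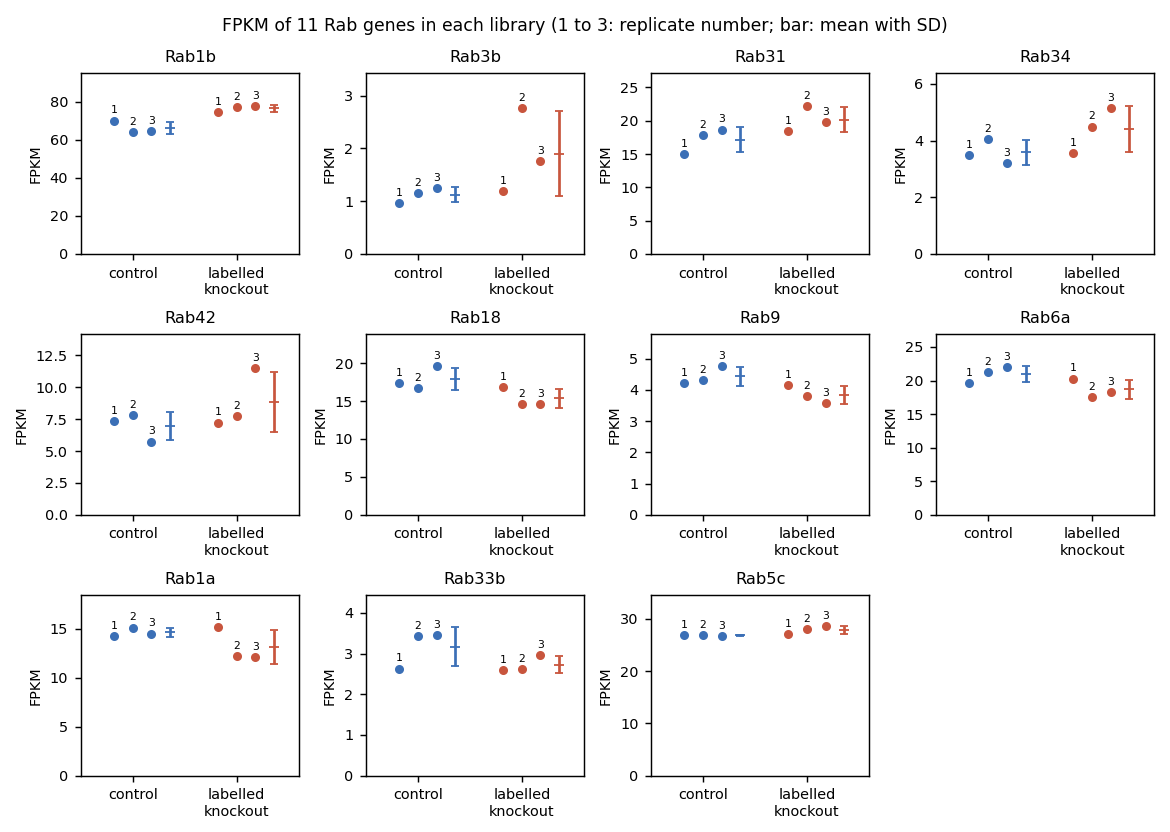
FPKM of 11 Rab genes in each of the 3 control and 3 labelled knockout libraries, numbered by replicate, with the group mean and SD beside the points. Rab1b, Rab5c and Rab9 have groups that do not overlap, and Rab3b and Rab42 have 1 high library each.

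The 18 members under 0.5 FPKM had means between 0.0020 and 0.443 FPKM, with at most 84 reads in a library. They included Rab27b, a relative of Rab27a, with 0.0285, 0 and 0.0195 FPKM in controls, against 0.0248, 0.0594 and 0.0240 FPKM in the knockout-labelled libraries. The X-linked Rab33a, Rab39b and Rab9b were also among them, as were Rab3c, Rab7b, Rab15, Rab17, Rab30, Rab37, Rab39 and Rab40b. On average 11 of the 18 had fewer than 10 reads. Groups did not overlap for Rab4b on the higher side and for Rab19, Rab9b, Rab26 and Rab39b on the lower side. Over the 6115 protein-coding genes above 0 in a library and likewise under 0.5 FPKM, 3.94% were higher and 3.76% lower without overlap. All of these genes were left out of the fit by the FPKM limit. Of the 18 members 12 were above 0 in every library, while the 6115 genes needed only be above 0 in any library. Genes with a 0 in both groups cannot separate, so these shares are not matched to the members. Mean reads were 24.7 for Rab9b and 10.2 for Rab19, and at most 6 for the other 3. Rab38, known from melanosomes, had 0, 3 and 9 reads in controls and 0 in each library labelled knockout. Rab25 and Rab44 also had 0 reads in these libraries and at most 2 reads in a control.

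In most sets of close paralogues 1 gene held nearly all of the transcript. Of 15 sets, Rab2a led Rab2b by 44.7-fold, Rab4a led Rab4b by 36.3-fold, and Rab7 led Rab7b by 34.5-fold. Rab2b and Rab4b share 59.6% and 62.7% of their words with other genes, and Rab4b had 2 to 11 reads in a library. The folds over Rab2b and Rab4b are therefore uncertain. Rab6a led Rab6b by 20.1-fold and Rab9 led Rab9b by 12.2-fold. Rab27a and Rab33b had means of 3.98 and 2.95 FPKM over the 6 libraries, while Rab27b had at most 0.0594 and Rab33a at most 0.199 FPKM in a library. The folds are between mean FPKM over 6 libraries.

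Other sets were shared. Rab11a was above Rab11b in all 6 libraries and by 1.47-fold on the mean, and Rab5c led Rab5b by 2.35-fold. Rab8b led Rab8a by 1.14-fold and Rab31 led Rab22a by 1.18-fold, each in 5 of 6 libraries. In the Rab3 set, Rab3d was 1.27-fold above Rab3a, and Rab3c had at most 0.0834 FPKM in a library. Rab39 and Rab39b both had under 0.2 FPKM in every library.

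The split between paralogues was also set against the groups. The share of Rab1b in Rab1b plus Rab1a was 83.1%, 80.9% and 81.7% in controls, against 83.0%, 86.3% and 86.5% in the knockout-labelled libraries. Knockout-labelled library 1 lay within the control range and the other 2 above it. The share of Rab3d in the Rab3 set was 42.4%, 48.3% and 42.8% in controls, against 37.1%, 34.5% and 34.3% in the knockout-labelled libraries, with no overlap. The level of Rab3d itself overlaps between the groups, with a difference of -0.07. In the same set Rab3b was highest in knockout-labelled libraries 2 and 3 (2.77 and 1.76 FPKM). Among the 15 sets the share of the leading gene did not overlap in 3, higher for Rab39 and lower for Rab3d and Rab4a. Of these, 2 rest on few reads: Rab39 had 5 to 10 and Rab39b 1 to 11 reads in a library, and Rab4b had 2 to 11 reads, with most of its sequence shared with another gene model. The count of 3 among 15 sets was not made for other gene sets, so it has no share over all genes beside it. An exact two-sided permutation test of 3 against 3 libraries cannot go below p = 0.1, so these shares are given as values.

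**Figure D4:**
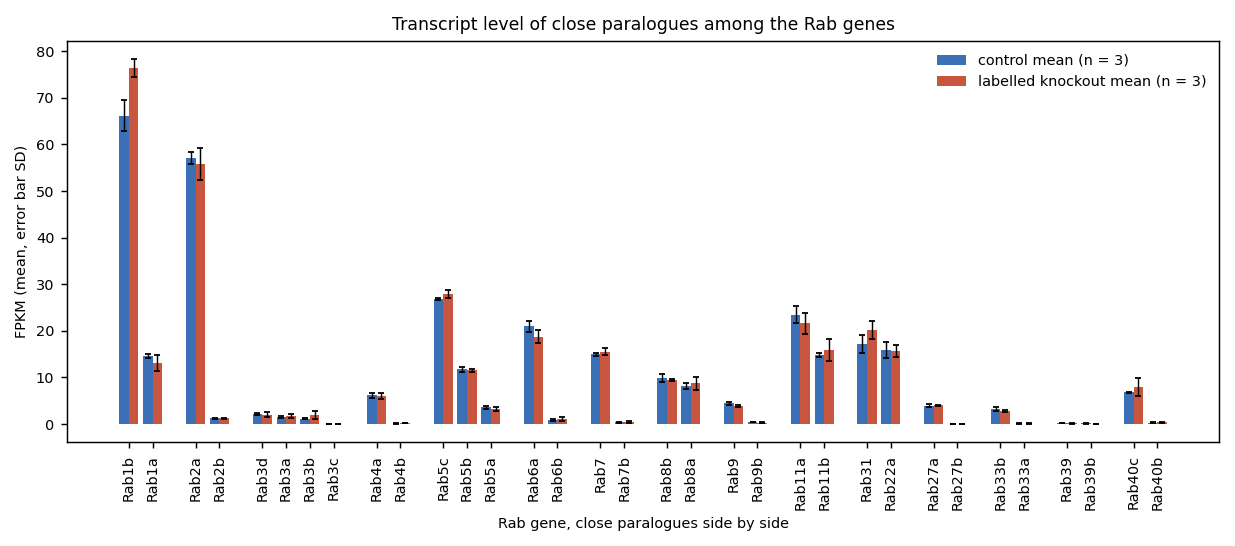
Bars are the mean FPKM of the control and labelled knockout groups (error bar SD, n = 3 each) for close paralogues side by side, on an axis that starts at 0. One gene dominates in the Rab1, Rab2, Rab4, Rab6, Rab7, Rab9, Rab27, Rab33 and Rab40 sets, while Rab8, Rab11 and Rab22a with Rab31 are nearer to even.

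Letters before the start sites were also read, and CCAAT was frequent among the abundant members. RefSeq start sites of GRCm38.p6 were matched by symbol for 48 of the 59 members, with 60 windows of 250 bases before the start. The letters CCAAT, on either strand, were in 11 of the 13 windows (84.6%) of members with at least 10 FPKM, in 24.2% of those with 0.5 to 10 FPKM and in 35.7% of those under 0.5 FPKM. They were in 33.8% of all 32851 RefSeq windows and in 35.8% of those of protein-coding genes with at least 10 FPKM. The limit of 10 FPKM was chosen after levels and motifs were seen, so this is a description of 12 genes with no test. Just under the limit, Rab8b (9.67 FPKM) and Rab8a (8.50 FPKM) also hold CCAAT, while Rab42 (7.90 FPKM) does not.

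To show where the letters lie, windows clear of the member's own gene model are printed for abundant and low members. Overlap with other genes was not checked. Of 7 such windows of members with at least 10 FPKM, 6 hold CCAAT. Shown are 4 of these (Rab5c, Rab31, Rab10, Rab28) and Rab1a, the only one of the 12 genes without it. All 4 such windows of members under 0.5 FPKM are shown, of which Rab39 and Rab40b hold CCAAT and the X-linked Rab39b and Rab33a do not. Capitals mark CCAAT, or ATTGG where it is on the other strand, and each is written 5′ to 3′ on the strand of its gene.
Rab5c, chr11:100738216-100738465, minus strand: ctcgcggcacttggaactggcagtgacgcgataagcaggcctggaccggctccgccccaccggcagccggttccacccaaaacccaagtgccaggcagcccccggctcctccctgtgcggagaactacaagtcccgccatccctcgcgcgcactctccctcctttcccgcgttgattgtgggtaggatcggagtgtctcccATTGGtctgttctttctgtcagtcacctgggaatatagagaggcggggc
Rab31, chr17:65772753-65773002, minus strand: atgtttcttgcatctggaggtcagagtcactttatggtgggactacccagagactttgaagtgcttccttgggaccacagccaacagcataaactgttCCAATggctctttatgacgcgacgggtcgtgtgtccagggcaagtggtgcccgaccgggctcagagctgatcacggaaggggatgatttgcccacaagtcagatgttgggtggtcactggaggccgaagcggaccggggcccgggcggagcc
Rab10, chr12:3309970-3310219, minus strand: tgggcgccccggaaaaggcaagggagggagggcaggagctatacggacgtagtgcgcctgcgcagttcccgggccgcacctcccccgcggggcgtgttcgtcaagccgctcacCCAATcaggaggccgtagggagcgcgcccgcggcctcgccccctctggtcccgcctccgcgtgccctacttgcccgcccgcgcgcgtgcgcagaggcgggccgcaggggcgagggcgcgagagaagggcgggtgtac
Rab28, chr5:41708180-41708429, minus strand: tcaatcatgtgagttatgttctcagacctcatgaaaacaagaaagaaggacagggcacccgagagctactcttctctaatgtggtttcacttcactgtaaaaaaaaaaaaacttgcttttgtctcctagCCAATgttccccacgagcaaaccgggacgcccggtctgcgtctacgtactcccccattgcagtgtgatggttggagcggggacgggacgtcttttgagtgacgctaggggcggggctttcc
Rab1a, chr11:20201162-20201411, plus strand: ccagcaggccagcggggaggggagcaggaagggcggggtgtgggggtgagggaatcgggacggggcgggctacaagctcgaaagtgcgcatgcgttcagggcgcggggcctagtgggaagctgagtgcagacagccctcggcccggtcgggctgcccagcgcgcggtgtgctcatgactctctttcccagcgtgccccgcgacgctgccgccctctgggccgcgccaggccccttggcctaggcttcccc
Rab39, chr9:53706233-53706482, minus strand: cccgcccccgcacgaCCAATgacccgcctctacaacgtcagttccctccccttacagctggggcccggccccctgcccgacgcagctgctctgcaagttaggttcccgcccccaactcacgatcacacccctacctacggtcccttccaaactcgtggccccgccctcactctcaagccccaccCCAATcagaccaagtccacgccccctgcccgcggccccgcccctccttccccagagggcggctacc
Rab40b, chr11:121388252-121388501, minus strand: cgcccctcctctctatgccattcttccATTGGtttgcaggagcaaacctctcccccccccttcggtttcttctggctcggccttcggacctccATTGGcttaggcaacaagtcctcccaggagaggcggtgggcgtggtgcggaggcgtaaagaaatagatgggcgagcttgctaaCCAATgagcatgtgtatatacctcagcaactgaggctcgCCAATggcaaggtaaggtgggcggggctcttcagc
Rab39b, chrX:75578232-75578481, minus strand: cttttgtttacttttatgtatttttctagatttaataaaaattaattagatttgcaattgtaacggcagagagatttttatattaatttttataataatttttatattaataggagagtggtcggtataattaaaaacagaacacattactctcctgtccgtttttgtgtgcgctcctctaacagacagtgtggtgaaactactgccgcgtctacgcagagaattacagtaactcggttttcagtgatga
Rab33a, chrX:48519035-48519284, plus strand: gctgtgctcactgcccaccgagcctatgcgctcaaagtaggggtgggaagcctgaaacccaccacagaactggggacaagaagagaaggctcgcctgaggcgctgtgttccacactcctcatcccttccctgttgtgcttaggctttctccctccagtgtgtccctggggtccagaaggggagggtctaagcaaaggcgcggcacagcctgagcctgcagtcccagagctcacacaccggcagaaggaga

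The matches lie 49 bases before the start in Rab5c, 121 in Rab28, 137 in Rab10 and 152 in Rab31. Among the low members, Rab39 holds 2 matches and Rab40b holds 4. Other patterns were searched on both strands in the same windows. The GC box GGGCGG was in 76.9% of windows of members with at least 10 FPKM, 69.7% of those with 0.5 to 10 FPKM and 50% of those under 0.5 FPKM. Of windows of protein-coding genes, 54.1% held it at 10 FPKM or more and 23.2% under 0.5 FPKM. The letters TGACG, which also occur inside the full CRE TGACGTCA, were in 69.2%, 36.4% and 21.4% of the same 3 groups. Of windows of protein-coding genes, 28.6% held TGACG at 10 FPKM or more and 11.7% under 0.5 FPKM. The full CRE was in 0%, 3.03% and 7.14% of the 3 groups. It was in 2.85% of windows of protein-coding genes with at least 10 FPKM. The TATA box TATAAA was in 7.69%, 6.06% and 7.14% of the 3 groups. It was in 6.59% of windows of protein-coding genes with at least 10 FPKM, 20.4% of those under 0.5 FPKM and 12.4% of all windows. The median number of CG pairs was 18 in windows of both higher groups and 7.5 in the lowest, where it was 16 for protein-coding genes with at least 10 FPKM, 3 for those under 0.5 FPKM and 6 over all windows. A match says only that the letters are there.

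The regulators of Rab proteins were read from lists of 157 genes, of which 140 were tested and 0 passed (smallest adjusted p 0.868, limma). Of these, 92 had a difference above 0 and 48 below, with a median of 0.04, where 48.6% of all genes were above 0 and the median was -0.01. Groups did not overlap in 13 (9.29%, where 8.56% of all genes did not), 9 higher and 4 lower. An unadjusted p under 0.05 was reached by 4 (3.87% of all genes), namely Mon1a, Tbc1d4 and Micall1 on the higher side and Trappc6b on the lower.

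Of the 8 genes of prenylation and GDP dissociation, 4 were above 0 and 4 below. Rabac1, the prenylated Rab acceptor, measured 72.7, 62.0 and 61.3 FPKM in controls, against 66.1, 70.2 and 72.3 FPKM in the knockout-labelled libraries. Gdi2, a GDP dissociation inhibitor, measured 26.0, 23.8 and 25.2 FPKM in controls, against 25.7, 21.97 and 18.3 FPKM in the knockout-labelled libraries. Its difference was -0.19 with an SE of 0.13, and it was 0.04 without knockout-labelled libraries 2 and 3. Rabggta, the alpha subunit of Rab geranylgeranyl transferase, measured 9.78, 9.11 and 9.34 FPKM in controls, against 10.1, 10.7 and 11.2 FPKM in the knockout-labelled libraries. Every labelled knockout library was above the controls, with a difference of 0.17 and an SE of 0.09. Chm, of the same list, measured 0.628, 0.605 and 0.768 FPKM in controls, against 0.515, 0.442 and 0.499 FPKM in the knockout-labelled libraries. Its groups did not overlap either, on the lower side, with a difference of -0.17 and an SE of 0.11.

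Of 51 GEFs 49 were tested, 35 above 0 and 14 below, with a median of 0.06. Rab3il1 and Rab3ip are exchange factors of Rab8 and its relatives. Rab3il1 measured 92.4, 93.9 and 75.8 FPKM in controls, against 91.97, 81.6 and 63.5 FPKM in the knockout-labelled libraries. Rab3ip measured 41.9, 40.8 and 41.5 FPKM in controls, against 39.8, 36.7 and 38.4 FPKM in the knockout-labelled libraries, without overlap and with a difference of -0.11. Sbf1, a DENN domain protein, measured 33.9, 35.96 and 37.9 FPKM in controls, against 34.4, 45.7 and 42.2 FPKM in the knockout-labelled libraries. Trappc6b, a subunit of the TRAPP complexes that activate Rab1, measured 14.1, 12.7 and 13.8 FPKM in controls, against 10.1, 8.61 and 11.2 FPKM in the knockout-labelled libraries. All 3 labelled knockout libraries, library 1 among them, lay below the controls. The difference was -0.41 with an SE of 0.11 (limma, unadjusted p = 0.00738, adjusted p = 0.868), and it lay between -0.49 and -0.32 under every alternative run. Mon1a, which with Ccz1 activates Rab7, measured 5.10, 5.24 and 3.92 FPKM in controls, against 5.73, 6.20 and 7.50 FPKM in the knockout-labelled libraries. Its groups did not overlap, and the difference of 0.38 with an SE of 0.14 was 0.23 without knockout-labelled libraries 2 and 3.

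Of 42 GAPs 40 were tested, 24 above 0 and 16 below, with a median of 0.02. Tbc1d20, the Rab1 GAP that is mutated in the blind sterile mouse, measured 87.6, 81.4 and 69.2 FPKM in controls, against 86.1, 73.7 and 60.0 FPKM in the knockout-labelled libraries. Tbc1d21, a GAP of testis, measured 88.4, 77.5 and 73.1 FPKM in controls, against 85.4, 71.3 and 55.8 FPKM in the knockout-labelled libraries. Both were lowest in knockout-labelled library 3 and overlap between the groups. Tbc1d4, a GAP of Rab10 and its relatives, measured 0.958, 0.893 and 0.942 FPKM in controls, against 1.07, 1.63 and 1.55 FPKM in the knockout-labelled libraries. Its groups did not overlap, and the difference of 0.32 with an SE of 0.13 was 0.10 without knockout-labelled libraries 2 and 3. Tbc1d1, its relative, measured 28.43, 26.2 and 28.44 FPKM in controls, against 28.5, 31.7 and 30.6 FPKM in the knockout-labelled libraries, with a difference of 0.12 and no overlap. Evi5, a GAP of Rab11, measured 4.83, 5.18 and 5.28 FPKM in controls, against 4.18, 4.91 and 4.41 FPKM in the knockout-labelled libraries, with a difference of -0.15 and overlapping groups.

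Of 56 effectors 43 were tested, 29 above 0 and 14 below, with a median of 0.04. Rab11fip5, an effector of Rab11, measured 102.03, 100.4 and 91.8 FPKM in controls, against 99.97, 108.07 and 95.5 FPKM in the knockout-labelled libraries. Golga4, a golgin of the trans-Golgi network, measured 37.9, 38.3 and 41.2 FPKM in controls, against 36.3, 45.4 and 37.8 FPKM in the knockout-labelled libraries. Ehbp1l1, an effector of Rab8, measured 34.96, 30.3 and 27.8 FPKM in controls, against 31.6, 34.6 and 31.5 FPKM in the knockout-labelled libraries. All 3 have overlapping groups. Micall1, an effector on recycling endosomes, measured 9.82, 10.2 and 10.8 FPKM in controls, against 12.7, 12.2 and 12.1 FPKM in the knockout-labelled libraries. Here knockout-labelled library 1 was the highest, and the difference was 0.24 with an SE of 0.08 (limma, unadjusted p = 0.0212, adjusted p = 0.868). Rabep1, an effector of Rab5, measured 7.72, 7.82 and 8.02 FPKM in controls, against 7.72, 6.60 and 6.06 FPKM in the knockout-labelled libraries, with a difference of -0.19, an SE of 0.10 and overlapping groups.

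Several differences were smaller, or of the other sign, without knockout-labelled libraries 2 and 3. These 2 libraries were the lowest pair of all 6 for 6 of the 41 members (14.6%, where 17.5% of all genes were), namely Rab1a, Rab6a, Rab9, Rab11a, Rab18 and Rab28. They were the highest pair for 11 members (26.8%, where 17.1% of all genes were), namely Rab1b, Rab3b, Rab5c, Rab7, Rab11b, Rab12, Rab31, Rab34, Rab36, Rab40c and Rab43. Without these 2 libraries, knockout-labelled library 1 against the 3 controls gave a difference of -0.08 for Rab18, -0.04 for Rab6a, 0.01 for Rab5c and 0.17 for Rab1b.

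Markers of several testis cell types, though not of all, moved with the same libraries. The level of the 10 markers of elongating and elongated spermatids, as the mean of log2(FPKM + 1) centred on the 6 libraries, was 0.49, 0.31 and -0.12 in controls and 0.34, -0.39 and -0.63 in the knockout-labelled libraries. All 10 had the lower mean in the knockout-labelled libraries, and their summed FPKM ran from 10587 to 18275 in controls and from 8024 to 15424 in the other group. All 9 Sertoli cell markers had the higher mean, with a summed FPKM of 439 to 465 in controls, against 443, 560 and 572 in the knockout-labelled libraries. The same held for 5 of 5 markers of peritubular myoid cells (42.2 to 48.7 FPKM in controls, 45.7 to 73.4 in the knockout-labelled libraries) and 8 of 8 of leukocytes (28.3 to 31.7 and 29.6 to 45.2 FPKM). Round spermatid markers (7 of 8 with the lower mean) had a level of 0.18, 0.05 and 0.01 in controls, against 0.12, -0.21 and -0.14 in the knockout-labelled group. Spermatocyte markers (7 of 8 lower) had 0.01, 0.07 and 0.13, against 0.02, -0.17 and -0.06. Leydig cell markers differed between knockout-labelled libraries 2 and 3, with 0.12 and -0.64 and a summed FPKM of 370 and 207, where the other 4 libraries held 328 to 359 FPKM. The endothelial level was 0.18 and 0.12 in knockout-labelled libraries 2 and 3, against 0.12 in control library 3 and -0.17 to -0.11 in the rest. Spermatogonial markers had 0.03 and 0.22 in knockout-labelled libraries 2 and 3, where the other 4 lay between -0.12 and 0.02. No marker passed the test, and none was at 0 in all libraries. The part of these cell types and of the small RNA share in the Rab values was not tested.

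**Figure D5:**
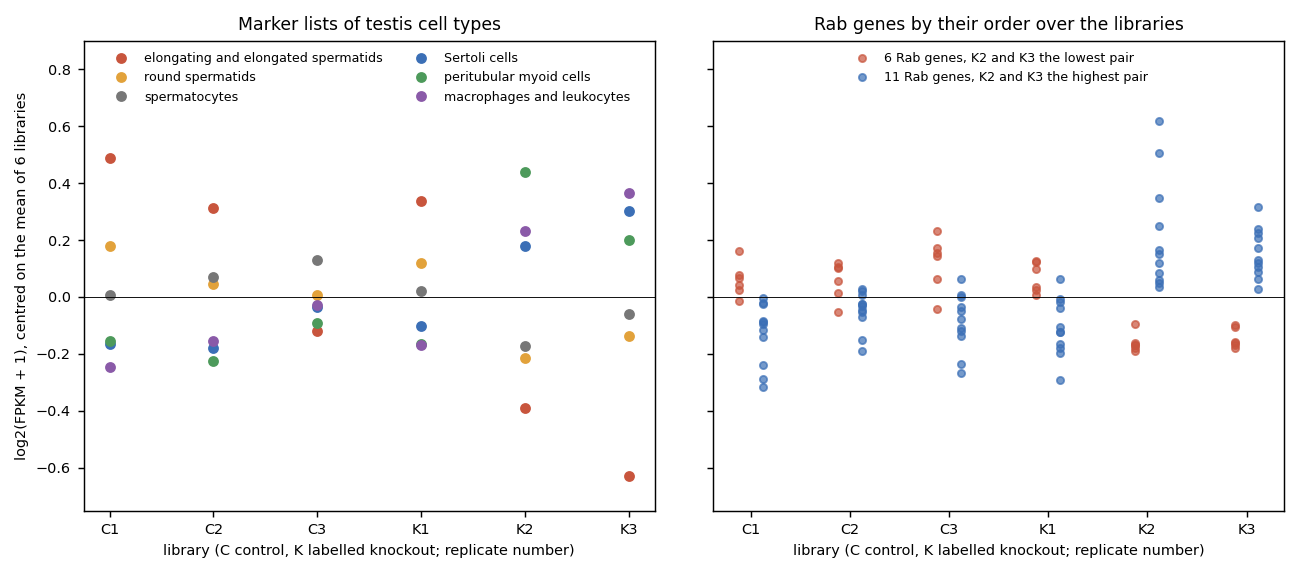
Left, the level of 6 marker lists in each library as the mean of log2(FPKM + 1) centred on the 6 libraries. Right, the same centred value for the 6 Rab genes lowest and the 11 Rab genes highest in knockout-labelled libraries 2 and 3 (K2, K3), which were chosen by that order, so only the position of the other 4 libraries is free in it.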

How the data were processed

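RNA of 6 mouse testis libraries was measured, 3 control and 3 labelled knockout, grouped and numbered by their titles. Trizol extraction and a SMARTER kit for mRNA libraries are recorded, per the labels' protocols. The only table deposited by the authors lists each gene with its position and its FPKM in every library. GRCm38 (mm10) is the build per the submitters' processing notes. The sources used here do not state the aligner, the counter, the annotation, the use of strand or any filter. Of the 59 members, 57 have the coordinates of GENCODE M21 (Rab1b and Rab18 differ).

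FPKM times gene length gave whole multiples of 1 step per library for 100% of values above 0, within 0.001 reads, from which reads were recovered. Depth was 17059486 to 19343479 reads per library, with 29316 to 30657 genes above 0. Genes averaging 0.5 FPKM or more were compared on the log2(FPKM + 1) scale by limma 3.58.1 under R 4.3.3. The fit used a trend and group only, two-sided, with Benjamini-Hochberg over all 19168 genes and adjusted p under 0.05. It was tried on simulated data with the same dispersion in every gene and no library effect beyond depth. There it called 17.5% of genes changed 1.5-fold, 77.5% of those changed 2-fold and 68.3% of those changed 0.5-fold. The changed genes were drawn from those with a mean of at least 2 FPKM. These rates therefore do not cover tested members with lower means, such as Rab3b and Rab6b. Sequences were searched with Python 3.11.15 and Biopython 1.88.

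The members and lists were chosen with earlier results of these data known. Values per library are given for the 12 most abundant members, the 5 of smallest p in each direction, members whose groups do not overlap, acrosome and secretion members and, as means or folds, close paralogues. In each regulator list these were the 3 most abundant genes and the 1 of smallest p in each direction. Other named genes were chosen after their values were seen. Alternatives covered the pseudocount, filters, scaling, array weights, blocking on the replicate number, limma-voom on the recovered reads, and libraries left out. Among the scalings, median-of-ratios divided every library by the same 1.00677, so it was near the main fit by construction. No protein sequence was used here.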

Additional observations from a re-analysis of the deposited data

How the results depend on the processing

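No Rab gene and no Rab regulator passed an adjusted p of 0.05 in any of the 19 alternatives, so the counts without each library in turn ran from 0 to 0 for members, regulators and all genes. The smallest adjusted p of a member was 0.165, without library 1 labelled knockout, where 8 members (19.5%) had an unadjusted p under 0.05, as had 18.2% of all genes in that fit. Over all genes, limma-voom on the recovered reads called 1 of 20556 genes, no member among them (adjusted p = 0.0195), and the cause was not tested. Of 208 alternative values for the 11 members of smallest p or with groups that do not overlap, 206 kept their direction. Both the 19 alternatives and these values count median-of-ratios scaling, which divided all libraries alike and was no separate check. Without knockout replicates 2 and 3, an alternative chosen after seeing the data that leaves 1 library assumed to vary like the others, the difference was -0.0075 for Rab34, 0.051 for Rab1a and 0.037 for Gdi2, each reversed, and the cause was not tested. Over all ways of leaving out libraries it ran from -0.0075 to 0.35 for Rab34, from -0.25 to 0.051 for Rab1a and from -0.30 to 0.037 for Gdi2. With the replicate number as a block, 0 genes, 0 members and 0 regulators were called (smallest adjusted p of a member 0.662), with 1411 genes at an unadjusted p under 0.05 against 741 without it. Deviations of same-numbered libraries correlated by 0.29, 0.04 and 0.20, and only replicates 1 and 3 correlated best with their own number, so the samples share a number and no pairing is known. Depth limits the 11 members with fewer than 10 reads on average.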
